A study of Mus musculus with 26 samples.

Results

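Cohesin sites that were called in every SMC3 list of the series, and that no list of accessible chromatin touched, numbered 1188 of 43783 merged SMC3 regions. They were chosen by calls alone. Peaks of the 6 SMC3 lists on chromosomes 1 to 19 and X were merged at an overlap of 1 bp or more, and a region was kept if a peak of all 6 lists lay in it, if it was under 3000 bp wide and if none of the 6 ATAC lists had a peak touching it. The constant regions under 3000 bp numbered 6626, of which the 1188 were 17.9%. The other 5438, touched by an ATAC peak in at least 1 list, are called accessible constant sites here and served for comparison. Because the calls chose the members, the number of lists that hold them is a description and not a result.

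SMC3 is a core subunit of cohesin, the ring-shaped complex that holds sister chromatids together and extrudes chromatin loops in interphase. In mammals cohesin is commonly stalled at sites bound by the insulator protein CTCF, and a smaller part lies at active enhancers and promoters. ATAC-seq cuts open chromatin with a transposase. At an SMC3 site without an ATAC peak, cohesin was thus called while accessibility did not reach the peak caller's threshold. The absence of a call is not the absence of accessibility.

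All cells were of the established mouse line C2C12, whose myoblasts withdraw from the cell cycle and fuse to myotubes in low serum. By the labels' protocols they were grown in 20% serum and differentiated in 2% horse serum with insulin, transferrin and selenium. The SMC3 ChIP groups were myotubes transfected with siDRR, a small interfering RNA against the DRR enhancer RNA, myotubes with no transfection given in the labels, and myoblasts. The ATAC groups were myotubes transfected with siSmc3, siDRR or a control small interfering RNA. ChIRP-seq, in which probes that hybridise to an RNA recover the DNA bound to it, was done for DRR in myotubes with probe pools 1 and 2. DRR stands for the distal regulatory region upstream of Myod1, which encodes a master regulator of the muscle lineage. Each of the 8 groups had 2 libraries. The labels name no separate cultures, so the spread between libraries may be technical.

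The lists differed in length, which bears on every value below. SMC3 lists held 8384 and 23196 peaks in siDRR myotubes, 15056 and 26765 in myotubes, and 30955 and 33154 in myoblasts. ATAC lists held 58138 to 103056 peaks. ChIRP lists held 3776 and 68812 summits for pool 1, and 23087 and 20295 for pool 2. No read counts were given, so the sequencing depth is unknown. Inputs and LacZ probe controls were not analysed here, nor were knockdown levels. All ATAC libraries were from myotubes, so accessibility in myoblasts was not measured here, and a site called a member may have been accessible there. In bulk chromatin, fewer cells with a bound site and less binding per cell cannot be told apart.

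The constant regions spread widely over the ATAC calls. None of the 6 ATAC lists touched 1188 of them, exactly 1 touched 977, and 2, 3, 4 and 5 lists touched 949, 1086, 924 and 715. All 6 lists touched 787. Regions without an ATAC peak were therefore the most frequent of the 7 classes, but they made up a smaller part of the constant regions than of all merged SMC3 regions, 17.9% against 22.6%. By the number of SMC3 lists that called a region under 3000 bp, the part without an ATAC peak was 23.7% with 1 list, 28.5% with 2, 24.6% with 3, 24.6% with 4, 23.6% with 5 and 17.9% with all 6. Region width was not matched in these shares, and the 22.6% also covers regions of 3000 bp or more.

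**Figure D1:**
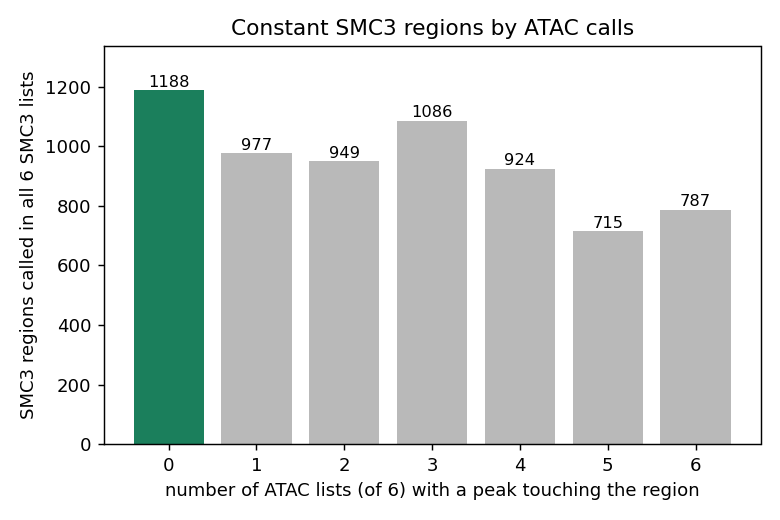
Number of SMC3 regions called in all 6 SMC3 lists and under 3000 bp (vertical axis) by how many of the 6 ATAC lists have a peak touching them (horizontal axis). The green bar is the 1188 regions with no ATAC peak, and the grey bars run from 715 to 1086.

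Regions just outside the choice were touched by weak ATAC peaks. In the 977 regions that exactly 1 ATAC list touched, the touching peak stood at a median rank percentile of 27.7 in its own list (quartiles 14.7 and 41.9). The rank percentile orders the peaks of 1 list by the authors' score, and the best has 100. In 87.5% of these regions the peak was in the lower-scoring 50% of its list. A single list thus decided the membership of many regions, and the lists did so unequally.

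That dependence was measured by leaving each ATAC list out of the choice and reading it afterwards. Of the regions with no peak in the other 5 lists, siSmc3 libraries touched 66 of 1254 (5.26%, exact Clopper-Pearson 95% interval 4.09% to 6.65%) in replicate 1 and 300 of 1488 (20.2%, 18.1% to 22.3%) in replicate 2. The siDRR libraries touched 62 of 1250 (4.96%) and 347 of 1535 (22.6%), and the control libraries 40 of 1228 (3.26%) and 162 of 1350 (12%). The replicate 2 libraries, all with longer lists than replicate 1 of their group, were the high ones in each of the 3 groups. Among all constant regions under 3000 bp the same lists touched far more, 28.6% and 63.8% under siSmc3, 33.7% and 66.2% under siDRR, and 25.6% and 55.7% in control myotubes. A region that was empty in 5 ATAC lists was thus mostly empty in the sixth as well. These intervals cover counting error only.

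The SMC3 calls were read in the same way. Of the regions without an ATAC peak that the other 5 SMC3 lists called, replicate 1 of siDRR myotubes held 1188 of 2341 (50.7%, 48.7% to 52.8%), and replicate 2 held 1188 of 1219 (97.5%). Myotube libraries held 1188 of 1343 (88.5%) and 1188 of 1192 (99.7%), and myoblast libraries 99.7% and 99.2%. Over all regions under 3000 bp called in the other 5 lists, whether accessible or not, the shares were 57% and 98.9% in siDRR myotubes, 91.2% and 99.8% in myotubes, and 99.7% and 99.7% in myoblasts. The shortest list, replicate 1 of siDRR myotubes, therefore set the number of members: 1153 further regions without an ATAC peak were missing from it alone. Regions without ATAC peaks were held by the left-out list less often than those with ATAC peaks in 6 of 6 lists. The shares ran from 50.7% against 58.6% in that list to 99.7% against 99.8% in replicate 1 of myoblasts. That last gap rests on 4 missing regions without and 13 with ATAC peaks. The difference between these shares was not tested.

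Within the constant regions, sites without an ATAC peak had lower SMC3 peaks. Their median rank percentile was 48.5 and 71.9 in the siDRR myotube lists, 64.7 and 75.9 in the myotube lists, and 80.2 and 79.8 in the myoblast lists. For accessible constant sites the medians were 56.3 and 81.7 in siDRR myotubes, 70.9 and 84.4 in myotubes, and 85.6 and 86.2 in myoblasts. Members were lower in 6 of 6 libraries, with a difference of -7.35 ± 1.63 percentile points (SD, n = 6), p = 0.0312 in a two-sided exact sign-flip permutation test over libraries, the smallest p that 6 libraries allow. Both sets had passed the same SMC3 calls and were separated by ATAC calls alone. The 6 libraries measure the same regions in 1 cell line, so the test speaks of repeatability over libraries.

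Region width moved with this difference. Members had a median width of 1306 bp (quartiles 1211 and 1452), and accessible constant sites 1401 bp (1259 and 1708). A wider region can meet an ATAC peak more easily, and the share of members among constant regions ran from 30.3% in the narrowest of 10 width classes of near-equal size (up to 1169 bp) to 4.68% in the widest (2156 bp and over). Compared within these classes, members differed by -3.67 percentile points on average and were lower in 6 of 6 libraries, with p = 0.0312 in the same exact permutation test. This comparison was added after the data had been seen. The width-matched difference ranged over libraries from -5.40 in replicate 2 of siDRR myotubes to -2.54 in replicate 1 of myoblasts.

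**Figure D2:**
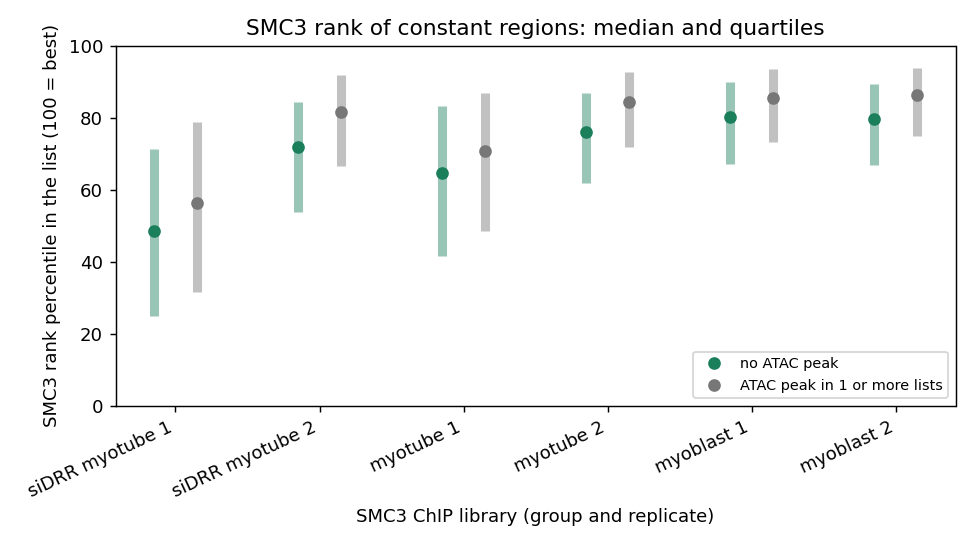
SMC3 rank percentile of constant regions in each SMC3 list (vertical axis, 100 the best) by ChIP library (horizontal axis, group and replicate); points are medians and bars run between quartiles, green for 1188 members and grey for 5438 accessible constant sites. The green point lies under the grey point in each of the 6 libraries, while the bars overlap throughout.

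Ranks taken in lists of different length cannot be set side by side, because a region called everywhere stands lower in a short list. The constant regions were therefore also ranked among themselves, 6626 in each library. On that scale the members' medians were 43.1 and 35.4 in siDRR myotubes, 42.8 and 34.8 in myotubes, and 39.4 and 37.2 in myoblasts, against 51.4 to 53.5 for accessible constant sites. Members differed by -13.7 ± 4.55 points (SD, n = 6). The difference was larger in replicate 2 of each group, at -18.1, -18.7 and -15.7 points in siDRR myotubes, myotubes and myoblasts, than in replicate 1, at -8.29, -8.64 and -13.0 points.

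SMC3 rank was higher where more ATAC lists touched a region, most plainly in the replicate 2 libraries. This is the same relation as the difference above, given as a description. In replicate 2 of myotubes the median was 34.8 with none, 40.5 with 1, 49.1 with 2, 55.7 with 3, 55.4 with 4, 58.6 with 5 and 64.9 with all 6. Replicate 1 of myotubes stood at 42.8 with none, 47.7 with 1, 49.5 with 2, 53.1 with 3, 53.7 with 4, 54.4 with 5 and 52.5 with all 6, so its values changed little beyond 3 lists. Median region width also rose with the number of ATAC lists, from 1306 bp with none to 1757 bp with all 6, and was not matched here. Constant regions were also ordered by mean rank over the 6 libraries in 10 near-equal classes. The weakest class held 199 members of 663 regions (30.02%) and the strongest 54 of 662 (8.16%). Sites without ATAC peaks were present at every strength, and 76 of them (6.40%) had a mean rank percentile of at least 90, against 15.02% of accessible constant sites.

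**Figure D3:**
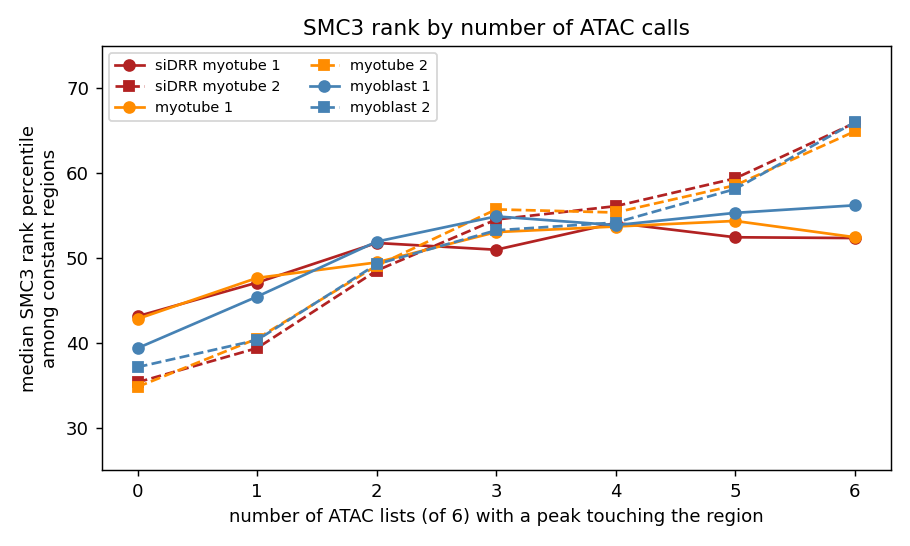
Median SMC3 rank percentile among the 6626 constant regions (vertical axis) by the number of ATAC lists touching a region (horizontal axis), 1 line for each SMC3 library, with circles for replicate 1 and squares for replicate 2. Members, at 0 lists, have the lowest median in all 6 libraries, from 34.8 to 43.1.

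The strongest member lay on chromosome 16 (85806740 to 85809327, mm9, 2588 bp). Its authors' scores were 235.0 and 1566 in siDRR myotubes, 392.2 and 1444 in myotubes, and 1343 and 1712 in myoblasts. These stood between percentiles 98.0 and 99.9 of their lists, so it was among the best peaks in every library although scores differ in range between lists. The nearest ATAC peak of any list was 1718 bp away. A ChIRP summit of pool 1 touched it in replicate 2, at a rank percentile of only 7.21.

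The second member was on chromosome 11 (102512120 to 102513522), with scores of 200.6 and 960.3 in siDRR myotubes, 383.2 and 1051 in myotubes, and 623.3 and 1075 in myoblasts. The third, also on chromosome 11 (5373797 to 5375077), had scores of 203.3 and 940.5 in siDRR myotubes, 398.8 and 831.8 in myotubes, and 745.5 and 876.4 in myoblasts. A further member of chromosome 11 (55202684 to 55204191) had a mean percentile of 97.5, the same as the third to 3 digits. The others of the 10 highest lay on chromosome 10 (70025333 to 70027379), 2 (163226210 to 163227808), 1 (43320321 to 43322230), 11 (96842935 to 96844695), 4 (129461812 to 129463226) and 18 (77844210 to 77845993). The mean percentiles of the 10 ran from 96.1 to 99.4, and 4 of them were on chromosome 11. That chromosome also held the most members, 102 of 1188, and the most constant regions, 552 of 6626. A surplus of strong members there was not tested. Their nearest ATAC peaks were 477 to 7771 bp away.

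The weakest member, on chromosome 17 (28785165 to 28786286), had scores of 50.13 and 55.01 in siDRR myotubes, 62.2 and 51.3 in myotubes, and 81.6 and 54.4 in myoblasts. It stood barely above the lowest score deposited, 50, in several of the lists. Mean percentiles of 21.9 and 23.9 belonged to members on chromosome 11 (74634721 to 74635748) and chromosome 16 (17473858 to 17474941). Over all members the mean percentile had a median of 68.5 (quartiles 55.4 and 79.7), against 75.4 for accessible constant sites. Of the 1188 members, 190 were under 50, and accessible constant sites under 50 were not counted.

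The width limit touched few regions. The widest members lay on chromosome 5 (91379978 to 91382840, 2863 bp), chromosome 3 (122167130 to 122169934, 2805 bp) and chromosome 10 (40243042 to 40245755, 2714 bp). Only 3 regions met the rule in all but width, on chromosome 14 (70578750 to 70581811, 3062 bp), chromosome 15 (78681114 to 78684220, 3107 bp) and chromosome 2 (125718260 to 125721391, 3132 bp). They were 0.679% of the 442 constant regions of 3000 bp or more. Their mean percentiles were 90.6, 61.6 and 90.4, and those of the 3 widest members 85.9, 93.9 and 72.7.

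Peaks of the 6 lists lay close together in members and in accessible constant sites. The overlap and the width limit of the rule partly fix this in both sets. The midpoints of the best peaks of the 6 lists lay within a median of 129 bp of each other (quartiles 94 and 172), against 137 bp for accessible constant sites (100.5 and 198.5). They lay within 200 bp in 84.4% of members and in 75.4% of accessible constant sites. More than 1 peak in some list was found in 12 members (1.01%), against 111 accessible constant sites (2.04%). Most members, 95.6%, were under 2000 bp wide, against 84.6% of accessible constant sites. Midpoint spread and width were not matched for each other.

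The order of the members by SMC3 rank was partly kept between libraries. Spearman's rho over the 1188 members was 0.429 to 0.769 between the libraries of a group. It was 0.330 to 0.782 between groups at the same replicate number, and 0.395 to 0.638 for the other pairs. Between groups, replicate 2 pairs had 0.662 to 0.782 and replicate 1 pairs 0.330 to 0.389. Replicate 2 of siDRR myotubes was closer to replicate 2 of myotubes (0.782) than to its own replicate 1 (0.429). The myoblast libraries were closest to each other (0.769). Over accessible constant sites rho was 0.486 to 0.743 within groups. These correlations are across regions, which are not independent replicates.

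The first comparison of conditions asked whether the members' SMC3 rank differed between myotubes and myoblasts. Sites that gained or lost a call had been left out beforehand, because the rule asked for a peak in all 6 lists. A rank among constant regions also cannot show a change that all constant regions share. By rank among the constant regions, the members' median was 38.8 ± 5.66 in myotubes and 38.3 ± 1.58 in myoblasts (SD, n = 2 each), a difference of 0.56 points (two-sided exact permutation test, p = 1). By rank in the full lists it was 70.3 ± 7.95 in myotubes and 80.0 ± 0.256 in myoblasts, a difference of -9.66 with p = 0.333 by exact permutation, the smallest p that 2 libraries against 2 allow. Accessible constant sites differed by -8.25 on that scale, and myotube lists were shorter than myoblast lists.

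Region by region, 277 members ranked higher in both myotube libraries than in both myoblast libraries (23.3%, against 21.9% of all constant regions). Another 251 ranked lower in both (21.1%, against 21.5%). Both shares were near the background, so differentiation gave no count that was particular to the members.

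Single members differed strongly all the same; those named next were picked after their values had been seen. A region on chromosome 11 (85987253 to 85988364) had scores of 261.7 and 857.9 in myotubes, against 109.3 and 164.7 in myoblasts. Among constant regions that put it at percentiles 85.2 and 90.6 in myotubes and at 2.04 and 6.49 in myoblasts, and at 31.8 and 44.3 in siDRR myotubes. The choice itself set the myotube and myoblast values far apart. The place of siDRR myotubes between them was therefore not read as a result. On chromosome 12 (55453616 to 55455020) the percentiles were 94.5 and 81.3 in myotubes, against 9.82 and 8.42 in myoblasts. In the opposite direction, a region on chromosome 6 (120146486 to 120148846) stood at 7.76 and 23.4 in myotubes, against 94.2 and 66.2 in myoblasts.

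The second comparison set the members' SMC3 rank in siDRR myotubes against that in myotubes with no transfection given in the labels. An effect of siDRR cannot be told apart here from one of transfection. Regions without a call in a siDRR list were left out by the rule, so loss of a site cannot be seen. By rank among constant regions the members' median was 39.3 ± 5.50 in siDRR myotubes and 38.8 ± 5.66 in myotubes (SD, n = 2 each), a difference of 0.42 (two-sided exact permutation test, p = 0.667). By rank in the full lists it was 60.2 ± 16.6 in siDRR myotubes and 70.3 ± 7.95 in myotubes, a difference of -10.1 (p = 0.667, exact permutation test). With members chosen anew without replicate 1 of siDRR myotubes, the shortest list, that difference was 1.18. Members ranked higher in both siDRR libraries than in both myotube libraries in 195 cases (16.4%, against 16.1% of constant regions). They ranked lower in both in 201 cases (16.9%, against 15.2%).

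The largest single differences under siDRR were again picked after the values had been seen. On chromosome 5 (113649219 to 113651040) the percentiles among constant regions were 22.7 and 10.9 in siDRR myotubes, against 82.2 and 79.2 in myotubes, with 32.3 and 26.5 in myoblasts. The choice used the myotube values, so the lower rank in myoblasts there was not read as a result. On chromosome 11 (99324049 to 99325451) they were 31.5 and 27.0 in siDRR myotubes, against 91.9 and 86.1 in myotubes. A region on chromosome 10 (23122487 to 23124253) went the other way, at 81.2 and 44.9 in siDRR myotubes, against 21.3 and 9.96 in myotubes. Differences of single regions were not tested.

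Overlap of these sites with DRR ChIRP summits was counted after widening the summits by 250 bp on each side. Members were set only against other constant regions. No overlap expected by chance was computed, and summits were not held against a LacZ background. Contact of the DRR RNA with these sites was therefore not tested. Pool 1 touched 6 members in replicate 1 (0.505%, exact 95% interval 0.186% to 1.096%; 0.513% of all constant regions) and 60 in replicate 2 (5.05%, 3.88% to 6.45%; 5.6% of all). Pool 2 touched 30 in replicate 1 (2.53%, 1.71% to 3.59%; 3.41% of all) and 20 in replicate 2 (1.68%, 1.03% to 2.59%; 2.14% of all). The pool 1 list with 60 touched members was also far longer than the one with 6, at 68812 against 3776 summits. Accessible constant sites were touched in 0.515% and 5.72% of cases by pool 1 and in 3.60% and 2.24% by pool 2. Members were lower in 4 of 4 libraries, with a difference of -0.579 ± 0.441 percentage points (SD, n = 4), with p = 0.125 in a two-sided exact sign-flip permutation test, the smallest p that 4 libraries allow. Within the 10 width classes the difference was -0.144 percentage points, and 2 of 4 libraries were then higher in members, with p = 0.75 in the exact permutation test. That comparison was added after the data had been seen.

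Few members were touched by both pools. There were 5 of them (0.421%), against 0.287% of all constant regions. None was touched in all 4 ChIRP lists: 0 of 1188, against 1 of the accessible constant sites. The strongest of the 5 by SMC3 was on chromosome 15 (64457771 to 64459803, 2033 bp), touched in replicate 2 of pool 1 at a rank percentile of 49.1 and in both replicates of pool 2 at 17.8 and 14.1. A region on chromosome 4 (40851637 to 40854197) was touched at 55.5 in replicate 2 of pool 1 and at 98.3 in replicate 1 of pool 2. The others lay on chromosome 11 (97653970 to 97655366 and 96397059 to 96398280) and chromosome 18 (11916568 to 11917708). The ChIRP summits at the 5 members thus ranged from weak to strong in their lists.

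Absence of an ATAC peak at a member did not mean a neighbourhood without accessible chromatin. Over the 6 lists together, the nearest ATAC peak lay a median of 2018 bp from the edge of a member (quartiles 1037 and 3962 bp). The nearest peak was within 1000 bp for 289 members (24.3%) and within 10000 bp for 1095 (92.2%). Such shares were not computed for other SMC3 regions or for random positions, so these are not a trait particular to members. Within 50 kb on each side, leaving out the region with 500 bp of flank, members had on average 5.42 and 7.33 ATAC peaks under siSmc3, 4.70 and 7.14 under siDRR, and 4.21 and 7.03 in control myotubes. Accessible constant sites had 5.63 and 7.58, 4.90 and 7.29, and 4.34 and 7.22 in the same lists. The density around members was 0.959 to 0.979 times that around accessible constant sites, lower in each of the 6 lists.

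By library, the median distance from a member to the nearest ATAC peak was 5005 and 3929 bp under siSmc3, 6422 and 3590 bp under siDRR, and 7006 and 4007 bp in control myotubes. The shortest ATAC list, replicate 1 of control myotubes, gave the longest distance. Replicates of a group differed more than the groups did, so no difference between knockdowns stood beyond the spread of the libraries.

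**Figure D4:**
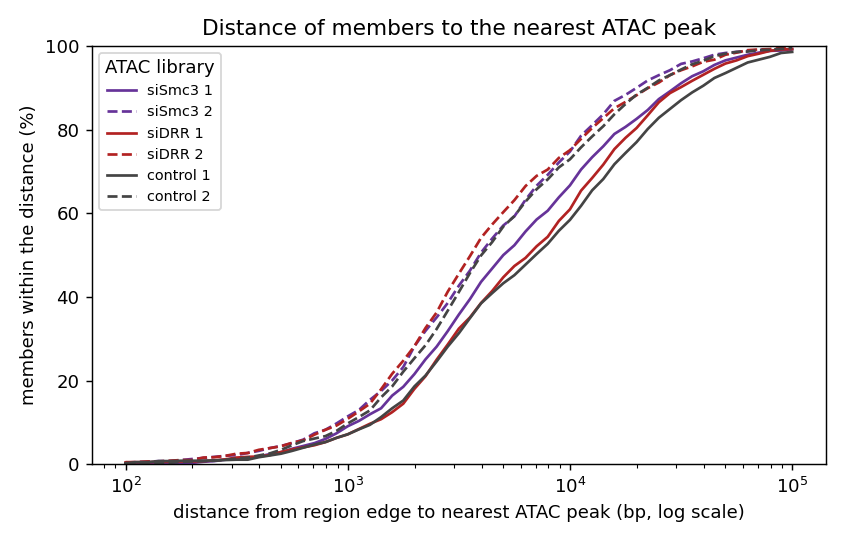
Percent of the 1188 members (vertical axis) that have an ATAC peak within a given distance of the region's edge (horizontal axis, bp, log scale), 1 line for each ATAC library, solid for replicate 1 and dashed for replicate 2. The 3 replicate 2 lines lie close together, with medians of 3590 to 4007 bp, and replicate 1 of control myotubes is the lowest, with a median of 7006 bp.

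A small group was far from any ATAC peak. Only 93 members (7.83%) lay more than 10000 bp from the nearest peak of all 6 lists, and 3 lay more than 50000 bp away. No share of other positions as far away was computed. With members grouped by distance to the nearest ATAC peak, these 93 had the lowest median SMC3 ranks. Their medians among constant regions were 31.8 and 28.2 in siDRR myotubes, 36.0 and 31.5 in myotubes, and 27.7 and 26.7 in myoblasts. The 288 members under 1000 bp from an ATAC peak stood at 47.6 and 35.9, 41.5 and 34.3, and 39.9 and 37.8 in the same order. The 93 were also narrower, with a median width of 1259 bp against 1306 to 1320 bp in the other distance groups. Width was not matched here. The farthest member, picked for its distance, was on chromosome 3 (6106252 to 6107362), 87956 bp from the nearest ATAC peak. Its scores were 60.6 and 92.4 in siDRR myotubes, 78.0 and 198.7 in myotubes, and 138.3 and 100.9 in myoblasts.

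Members lay on all 20 chromosomes analysed, in unequal shares of the constant regions. The share was highest on chromosome 17, with 70 of 286 constant regions (24.5%), followed by chromosome 10 with 80 of 372 (21.5%) and chromosome 7 with 84 of 392 (21.4%). Chromosome 15 stood apart at the low end, with 29 of 292 (9.93%), and the next lowest was chromosome 5 with 55 of 378 (14.6%). Chromosome 15 also had the highest density of ATAC peaks, 47.7 per Mb on average over the 6 lists, against a median of 33.9 over chromosomes. It was the densest chromosome in 6 of 6 lists. Chromosome X had the lowest density, 13.4 per Mb, and 19 of 98 constant regions (19.4%) without an ATAC peak. Over the 20 chromosomes the share of members and the ATAC density had a Spearman's rho of -0.272, and -0.151 without chromosome 15, as a description.

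**Figure D5:**
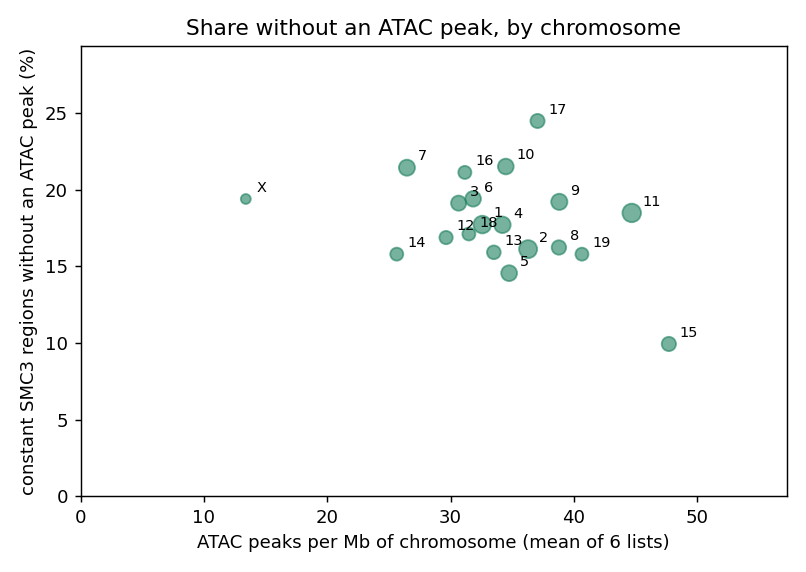
Percent of constant SMC3 regions without an ATAC peak (vertical axis) against ATAC peaks per Mb of chromosome, mean of 6 lists (horizontal axis), for 20 chromosomes, with larger points for more constant regions. Chromosome 15 is the lowest at 9.93% with the highest density of 47.7 per Mb, and chromosome 17 the highest at 24.5%.

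Members were interspersed with accessible constant sites. The nearest other constant region lay a median of 62.3 kb from a member and 63.3 kb from an accessible constant site. That neighbour was itself a member for 263 members (22.1%), against 927 accessible constant sites (17.0%), and members were 17.9% of all constant regions. In order along the chromosomes, 752 members stood alone between accessible constant sites, and 290 came in pairs. The longest runs held 5 members each, and there were 3 of them.

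The run on chromosome 17 (43837541 to 44213702) spanned 376 kb, and its 5 members had mean percentiles of 81.9, 78.6, 82.5, 86.3 and 63.1. Their nearest ATAC peaks lay 434 to 2460 bp away. The run on chromosome 5 (32506715 to 32960537) spanned 454 kb, with mean percentiles of 25.7, 88.6, 56.3, 54.8 and 52.0. It held 3 members more than 10 kb from any ATAC peak, at 53140, 11672 and 41744 bp. The third run, on chromosome 14 (32285276 to 32608670), spanned 323 kb with mean percentiles of 41.9 to 83.8. The runs thus joined members of very different SMC3 rank, and accessible chromatin was near in the run of chromosome 17 and distant in much of that of chromosome 5.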

How the data were processed

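Peak lists of 16 of the 26 samples were used; the other 10 were not analysed here. Per the submitters' processing notes the build was mm9, and the tools named, without roles, were MACS2, MACS 1.4.2, Bowtie2 2.2.4, cutadapt 1.12, Bowtie 1.1.1, bcl2fastq 2.17.1 and CASAVA 1.8.2. For peak calling, control and threshold: not given in the sources used here. Each library had a list of its own. The deposited value used here is the score that the authors' caller gave a peak, whose scale is not stated. Scores were used only to rank peaks inside a list, so a longer list from deeper sequencing cannot be told apart from more binding.

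Lists were merged with Python 3.11.15, numpy 2.4.6, pandas 2.3.3 and scipy 1.17.1. Only chromosomes 1 to 19 and X entered. Starts were converted to 1-based positions. A region took the score and rank of its best peak in each list. No 2 ATAC or SMC3 lists shared more than 0.0119% of identical intervals. Tests were exact permutation tests over libraries at a threshold of 0.05, checked on simulated data. Named regions were the 10 highest and 3 lowest members by mean rank percentile, the 3 on each side of the width limit, and those touched by both ChIRP pools; others are said to be picked after their values. Members and comparisons were chosen with earlier results of these data known. With 2 libraries a group, replicate numbers were not taken to pair samples. The reference tables were of another build, so genes, gene groups, motifs and sequences were not used here.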

Additional observations from a re-analysis of the deposited data

How the results depend on the processing

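The number of members depended on the lists. It was 394 with the better-scoring 50% of each SMC3 list, 463 with SMC3 lists of equal length, 3180 with the better-scoring 50% of each ATAC list and 2362 with ATAC lists of equal length. Leaving out 1 library gave 1195 to 2342, the highest without replicate 1 of siDRR myotubes. The other counts were within 1.5 times 1188. The share of constant regions without an ATAC peak was 13.8% with either reduction of the SMC3 lists, 48.0% with the better-scoring 50% of the ATAC lists, 35.6% with ATAC lists of equal length, 15.7% with ATAC peaks widened by 500 bp, 16.9% with no width limit, 19.8% under 2000 bp, and 17.9% to 23.2% without 1 library.

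Members stayed lower in SMC3 rank than accessible constant sites under all 24 alternatives, with differences of -13.7 to -3.67 points. Without 1 library the difference was -8.99 to -6.86, with exact permutation p between 0.0312 and 0.0625, and 0.0625 is the smallest that 5 SMC3 libraries allow. With the replicate number as a block it was -7.35, where 2 numbers cannot go below p = 0.5 (exact permutation test). The myotube minus myoblast difference was -9.66 with and without the block, 0.975 with lists of equal length and 0.56 by rank among constant regions, and leaving out 1 library gave -15.4 to -4.27. The siDRR minus myotube difference, -10.1 with and without the block, was -1.06 with lists of equal length and 0.42 by rank among constant regions, and ranged from -22.0 to 1.18 without 1 library. Region width differed by -95 bp, and by -79, -130 and -121 bp with the better-scoring 50% of SMC3 lists, of ATAC lists, and no width limit. The mean ChIRP difference stayed below 0, but was -0.144 within width classes, where 2 of 4 libraries turned positive, and -0.180 with the better-scoring 50% of each ChIRP list. Deviations at the same number correlated at 0.180 between siDRR myotubes and myotubes, 0.0587 between myotubes and myoblasts and 0.0770 between siDRR myotubes and myoblasts. Of the 18 members named for their SMC3 rank or for ChIRP of both pools, 10 stayed members with the better-scoring 50% of SMC3 lists, 13 with SMC3 lists of equal length, 16 with widened ATAC peaks and 14 under 2000 bp. The CTCF motif comparison was not run, as no genome of this build was used here. The cause of the reversals was not tested.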
